A study of Rattus norvegicus with 96 samples.

Results

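Slc17a7, Tbr1, Neurod6, Neurod2, Camk2a and Nrgn are markers of the excitatory neurons of the cortex and of the basolateral amygdala. Their RNA was followed here in 96 arrays of the central nucleus of the amygdala of the rat. The members are all probe sets that the array annotation gives to 1 of these 6 gene symbols alone. That took in 10 of 31042 probe sets and 6 of 14217 genes. Slc17a7 had 2 probe sets, Camk2a had 4, and the other genes had 1 each.

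The rats came from 5 pairs of lines selected either for high or for low alcohol preference, and the design asks how gene expression differs between both lines of each pair. The preferring lines were HAD1 (9 arrays), HAD2 (10), P (10), AA (10) and sP (8). Their non-preferring partners were LAD1 (10 arrays), LAD2 (10), NP (10), ANA (10) and sNP (9). The labels name the line, its preference and the animal, and no sex, age or alcohol exposure is given in them. Each array is 1 animal of its line, so a p-value measures the spread between animals that share descent.

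The forebrain has excitatory and inhibitory neurons in different proportions from one nucleus to the next. The central nucleus consists mostly of GABAergic neurons related to those of the striatum. The neighbouring lateral and basolateral nuclei, like the cortex, consist mostly of glutamatergic projection neurons. Slc17a7 encodes VGLUT1, the transporter that loads glutamate into synaptic vesicles in these cells. Tbr1 is a T-box transcription factor of pallial projection neurons. Neurod6 and Neurod2 are basic helix-loop-helix factors of the same neurons, and such factors bind short DNA sites called E-boxes. Camk2a encodes the alpha subunit of calcium/calmodulin-dependent kinase II, abundant at excitatory synapses. Nrgn encodes neurogranin, which binds calmodulin in dendritic spines. Camk2a and Nrgn are also expressed in striatal projection neurons, so they separate the nuclei less sharply than Slc17a7 or Neurod6. In tissue RNA, fewer cells of a type and less RNA per cell cannot be told apart.

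The 3 genes that moved together most closely were Slc17a7, Neurod6 and Neurod2. The bases just before their gene starts are printed for that reason, taken from RefSeq on the GRCr8 build, on the strand of each gene and 5′ to 3′. Capitals mark CAGATG, an E-box with the form CANNTG that was searched on both strands in the 250 bases before the start.
Slc17a7 (chr1:104785955-104786171, plus strand): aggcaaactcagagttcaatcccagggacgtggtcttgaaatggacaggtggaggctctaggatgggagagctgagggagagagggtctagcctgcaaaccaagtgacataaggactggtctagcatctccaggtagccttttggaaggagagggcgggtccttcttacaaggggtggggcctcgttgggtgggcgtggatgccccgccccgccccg
Neurod6 (chr4:86180156-86180405, minus strand): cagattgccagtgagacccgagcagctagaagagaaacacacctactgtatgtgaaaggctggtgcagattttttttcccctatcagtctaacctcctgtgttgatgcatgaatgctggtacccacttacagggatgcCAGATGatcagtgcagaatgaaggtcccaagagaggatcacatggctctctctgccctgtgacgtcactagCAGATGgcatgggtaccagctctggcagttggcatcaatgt
Neurod2 (chr10:83824278-83824527, minus strand): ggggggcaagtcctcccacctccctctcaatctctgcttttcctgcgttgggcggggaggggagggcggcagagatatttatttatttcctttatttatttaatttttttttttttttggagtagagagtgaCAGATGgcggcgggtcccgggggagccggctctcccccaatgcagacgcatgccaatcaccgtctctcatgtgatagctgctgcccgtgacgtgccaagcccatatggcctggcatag
The Neurod6 stretch held CAGATG at 112 and at 41 bases before the start. The Neurod2 stretch held it at 118 bases before the start, and the 217 bases printed for Slc17a7 did not hold it. All 6 members had an entry in the RefSeq table and 3 of them held the motif, the third being Nrgn. The windows of Tbr1 and Camk2a lay wholly inside the model of their own gene, with 0 bases before it. Of all 33469 windows of this length in the table, 4673 held it, or 13.96%. These were counted whole, whether or not they reached into a gene. A match describes letters and is not a binding site.

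Markers of the central nucleus were read line by line. Line means ran from 12.75 to 14.49 log2 units for Penk, 10.21 to 11.65 for Nts, 9.01 to 9.81 for Prkcd, 9.02 to 13.29 for Sst, 6.75 to 9.89 for Crh and 6.06 to 8.98 for Dlk1. For each of these 6 genes the lowest mean was that of HAD1 or LAD1, where single arrays fell to 6.07 for Sst and 5.90 for Crh. Slc17a6, the glutamate transporter of diencephalic neurons, had means between 10.58 and 11.16 in the HAD and LAD lines and between 8.72 and 9.34 in the others. Gad1, which encodes an enzyme of GABA synthesis, ranged from 13.75 to 14.68 log2 units. No detection calls were used, so a low level and background could not be told apart. RNA quality divided the pairs. The log2 ratio of the 3′ to the 5′ GAPDH control probe set had means between 3.33 and 4.09 in the HAD1, LAD1, HAD2 and LAD2 arrays and between 0.20 and 0.43 in the other 6 lines. Levels of different pairs cannot be told apart from this difference and were not tested against each other. Doubt falls on 15 arrays that scored on the other line's side of their pair, among them P 9, P 1 and NP 9. The score was read from the 100 probe sets that best separated the pair on odd chromosomes and from 100 on even ones, members left out. It runs from -1 at the median of the non-preferring line to 1 at that of the preferring line, and for ANA 18 it was close to the midpoint (0.07 and 0.02). Arrays sP 2 and sNP 2, of opposite lines, were nearly identical, with an SD of 0.09 log2 units over their differences against 0.16 for the next closest arrays. The title of LAD1 36 and its source name disagree on the line. For the members, the numbers of results past the limma test and the relation test are given with and without the 15 doubted arrays. Single values without them are given only where stated.

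In the P and AA pairs Slc17a7 varied far more between animals of a line than between both lines of the pair. Its brighter probe set, 1368987_at (Entrez 116638), ran from 6.26 over a median of 6.58 to 11.36 log2 units in P and from 6.31 over 7.05 to 10.17 in NP. In AA it ran from 5.94 over 8.31 to 10.80 and in ANA from 6.15 over 7.37 to 9.53. In both pairs the ranges of the lines overlapped, with the single highest array in the preferring line. The high arrays came from both lines of a pair. A level above 8 log2 units was reached by 4 P and 3 NP arrays and by 5 AA and 4 ANA arrays.

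In sP the probe set 1368987_at ran from 5.87 over 6.09 to 9.66, and in sNP from 5.98 over 6.19 to 8.03. Here single arrays, sP 4 and sNP 6, lay above 8 log2 units and the other 15 below. In HAD2 the values ran from 5.85 over 5.94 to 7.53, the highest being HAD2 9, and in LAD2 from 5.73 over 6.04 to 6.25. HAD1 and LAD1 were narrow, from 6.50 over 6.68 to 6.79 and from 6.40 over 6.68 to 6.81. None of the 19 HAD1 and LAD1 arrays and none of the 20 HAD2 and LAD2 arrays passed 8 log2 units.

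By mean, 1368987_at was lowest in LAD2 (6.04 ± 0.19, SD, n = 10) and came next in HAD2 (6.13 ± 0.51), sP (6.53 ± 1.27), sNP (6.54 ± 0.70), LAD1 (6.65 ± 0.13), HAD1 (6.66 ± 0.11), NP (7.55 ± 1.252), ANA (7.67 ± 1.236), P (7.70 ± 1.83) and AA (8.10 ± 1.73). Every neighbour in this order lay within the larger of both SDs, and levels of different pairs also differ in RNA quality. The second Slc17a7 probe set, 1368986_at, was flatter. Its highest arrays were P 9 at 8.24, NP 2 at 7.41 and AA 3 at 7.34, which were also the highest arrays of these lines on the first. Both Slc17a7 probe sets moved together in P and NP (r = 0.87, rho = 0.83, permutation adjusted p = 0.000131 over 35 relations between probe sets of 1 gene). The same held in AA and ANA (r = 0.88, rho = 0.88, permutation adjusted p = 7e-05). In sP and sNP r was 0.69 (rho = 0.34, permutation adjusted p = 0.0112) and fell to 0.44 without the 2 arrays farthest from the median. In HAD1 and LAD1, where the first probe set hardly varied (SD within lines 0.12), r was 0.20. In HAD2 and LAD2 that SD was 0.38, and both probe sets did not move together (r = 0.00). HAD2 9, the highest HAD2 array on the first, was not the highest on the second, which was HAD2 10 at 6.47.

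**Figure D1:**
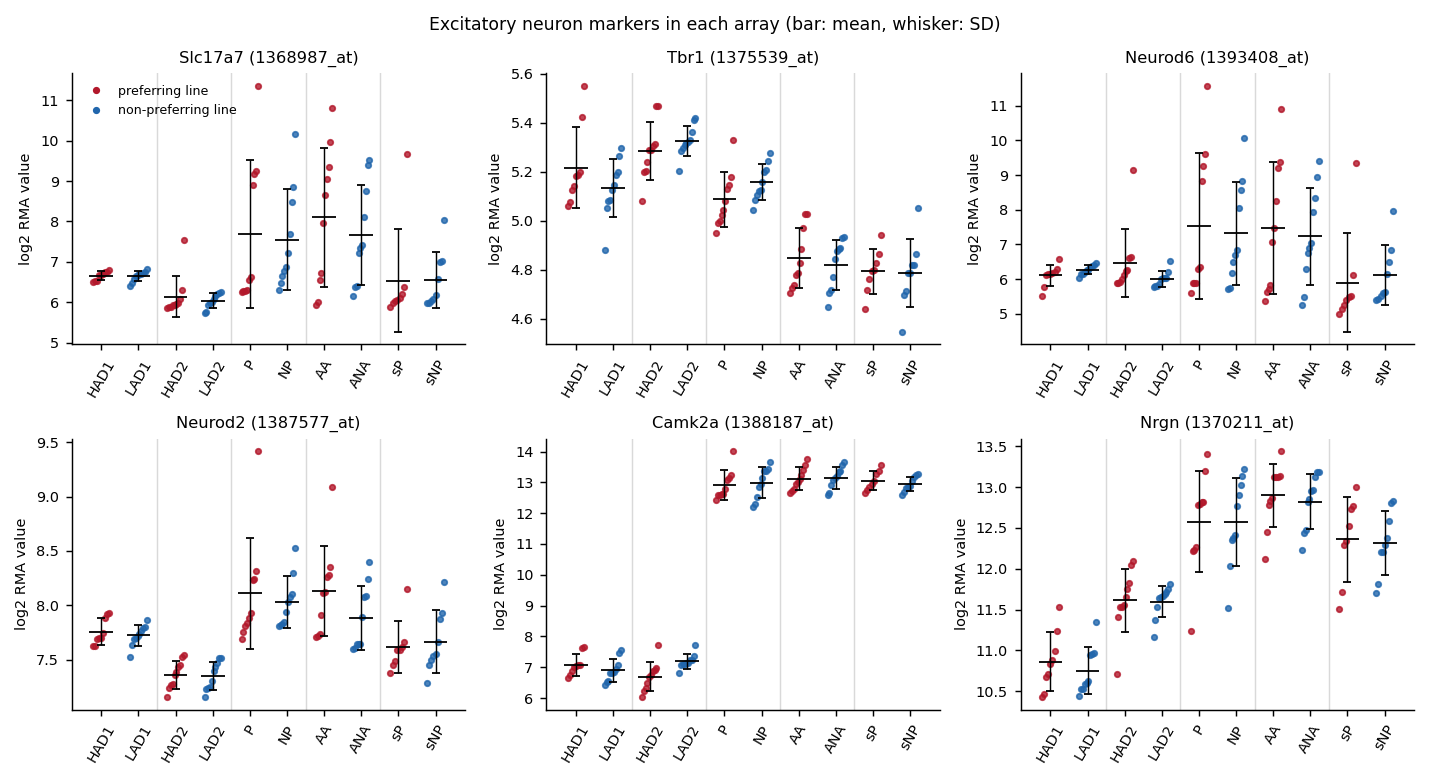
Deposited log2 values of the brightest probe set of each of the 6 genes in every array, 1 point per array, by line, with the mean (bar) and SD (whisker). The axis of each panel has its own range. Slc17a7 and Neurod6 spread over several log2 units within P, NP, AA and ANA, while Tbr1 stays between 4.55 and 5.55 in all 96 arrays.

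Neurod6 (1393408_at, Entrez 500137) had the same animals at the top. It ran from 5.60 over 6.33 to 11.58 log2 units in P, with P 9 highest, and from 5.71 over 6.78 to 10.08 in NP, with NP 2 highest. In AA it ran from 5.37 over 7.27 to 10.89, with AA 3 highest, and in ANA from 5.26 over 6.97 to 9.40, with ANA 2 highest. P 9, NP 2 and AA 3 were thus the highest arrays of their line for both genes. In sP the range was 5.01 over 5.43 to 9.34 and in sNP 5.39 over 5.63 to 7.97, again with sP 4 and sNP 6 on top. HAD2 9 reached 9.14, against a line median of 6.18, and the next HAD2 array lay at 6.64. LAD2 stayed between 5.79 and 6.52, HAD1 between 5.53 and 6.58 and LAD1 between 6.05 and 6.46.

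Set against all 31042 probe sets, Neurod6 and Slc17a7 were among the most variable on these arrays within lines. The within-line SD of Neurod6 was 1.82 log2 units in P and NP, the 5th largest, and 1.67 in AA and ANA, the 2nd largest. It was 1.16 in sP and sNP (rank 20), 0.71 in HAD2 and LAD2 (rank 83) and 0.23 in HAD1 and LAD1 (rank 7643). The SD of Slc17a7 1368987_at was 1.57 in P and NP and 1.50 in AA and ANA, rank 9 in both. It was 1.01 in sP and sNP (rank 41), 0.38 in HAD2 and LAD2 (rank 995) and 0.12 in HAD1 and LAD1 (rank 24373). The median SD of all probe sets lay between 0.14 and 0.17 log2 units in the 5 pairs. A rank describes a probe set on these arrays and depends on its probes.

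Neurod2 (1387577_at, Entrez 54276) spread less. Its line means lay between 7.35 (LAD2) and 8.13 (AA) log2 units. The highest arrays of their lines were P 9 at 9.42, AA 3 at 9.09, NP 2 at 8.53, ANA 12 at 8.40, sNP 6 at 8.22 and sP 4 at 8.15. Each of these 6 was also the highest array of its line for Slc17a7 1368987_at. Neurod2 fell as the GAPDH 3′ to 5′ ratio rose across HAD2 and LAD2 arrays (r = -0.74, rho = -0.86, permutation adjusted p = 0.0018). That was the 1 of 30 relations between a member and this measure of RNA quality to pass the test, and r was -0.85 without its 2 farthest arrays.

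Tbr1 (1375539_at, Entrez 680427) was the exception among the transcription factors. It had line means between 4.79 (sNP) and 5.33 (LAD2) log2 units and line SDs between 0.06 and 0.16. Its within-line SD ranked 28457 of 31042 in P and NP and 27013 in AA and ANA, so it was among the least variable probe sets there. Its values lay between 4.55 and 5.55 over all arrays, where a low level and background could not be told apart. P 9, the highest P array for the other 5 genes, had the highest Tbr1 value of its line at 5.33.

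Camk2a (Entrez 25400) was read by 4 probe sets, and they did not agree on the lines. The brightest, 1388187_at, had means between 12.91 and 13.15 log2 units in the 6 lines of the P, AA and sP pairs and between 6.70 and 7.20 in the HAD and LAD lines. The GAPDH ratio divided the same lines, and its part in the gap was not tested. The probe sets 1381637_at and 1389824_at had line means between 8.55 and 10.54 log2 units, and 1368935_at between 5.42 and 7.09. Within P and NP all pairs of these probe sets had r between 0.69 and 0.93. In HAD2 and LAD2, 1388187_at did not follow 1381637_at (r = -0.02) or 1389824_at (r = -0.32), while those 2 followed each other (r = 0.79, permutation adjusted p = 0.000286). ANA 6 was far below its line on 1381637_at (8.46, next 9.94) and 1389824_at (8.42, next 10.09), and was also the lowest ANA array on 1388187_at at 12.60.

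Nrgn (1370211_at, Entrez 64356) was bright in all lines. Its means ran from 10.75 (LAD1) and 10.86 (HAD1) over 11.60 (LAD2) and 11.61 (HAD2), 12.31 (sNP) and 12.36 (sP) to 12.58 in both P and NP, 12.82 (ANA) and 12.90 (AA) log2 units. The partners of each pair differed by less than their SDs, which lay between 0.19 and 0.61. The top arrays were AA 3 at 13.44, P 9 at 13.40 and NP 4 at 13.22, which were high for Slc17a7 too. HAD2 6 was lowest in its line at 10.71, and it was the lowest HAD2 array for Slc17a7 and Neurod2 as well.

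None of the 10 probe sets differed between the lines of a pair by limma, adjusted over all 31042 probe sets. In HAD1 and LAD1 the test called 0.963% of all probe sets and in HAD2 and LAD2 4.09%. In each of the P, AA and sP pairs it called 0% of them. There 1523, 1528 and 1341 probe sets had an unadjusted p under 0.05, which is no more than chance alone gives at that threshold. Most of the doubted arrays lay in these pairs. Without them 16 of 20 arrays remained in P and NP, 15 of 20 in AA and ANA and 13 of 17 in sP and sNP. In HAD1 and LAD1 17 of 19 remained, and HAD2 and LAD2 kept all 20. The 0% thus holds for the lines as labelled, and the share without the doubted arrays is not given here. For the mean of the 5 differences 0.986% of all probe sets passed and for their variation among pairs 4.54%, and again 0 of the 10 members did. Among the members, unadjusted p under 0.05 was reached 3 times: by Camk2a 1388187_at and 1381637_at in HAD2 and LAD2 and by Camk2a 1389824_at in sP and sNP. Of all 31042 probe sets, 5079 reached it in HAD2 and LAD2 and 1341 in sP and sNP.

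The intervals show how large a difference in probe set signal these comparisons could have seen. Slc17a7 1368987_at differed by 0.14 log2 units between P and NP (preferring minus non-preferring, 95% interval -1.19 to 1.48) and by 0.43 between AA and ANA (-0.83 to 1.69). Between sP and sNP it differed by -0.01 (-0.92 to 0.91), between HAD2 and LAD2 by 0.10 (-0.22 to 0.42) and between HAD1 and LAD1 by 0.01 (-0.11 to 0.13). Thus a difference of 1 log2 unit lay inside the interval in P and NP and in AA and ANA, and well outside it in HAD1 and LAD1. In HAD1 and LAD1 this probe set lay between 6.40 and 6.81 and had r of 0.20 with the second Slc17a7 probe set. A low level and background could not be told apart there, so that narrow interval bounds the signal and not the RNA. Neurod6 differed by 0.20 between P and NP (-1.35 to 1.76), 0.25 between AA and ANA (-1.15 to 1.65) and -0.21 between sP and sNP (-1.26 to 0.84). It differed by 0.46 between HAD2 and LAD2 (-0.12 to 1.05), where HAD2 9 alone reached 9.14, and by -0.16 between HAD1 and LAD1 (-0.36 to 0.04).

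Leaving out the 15 doubted arrays changed no call. P 9 is one of them, and without them the P minus NP difference of Slc17a7 was -0.10 in place of 0.14 and that of Neurod6 was -0.01 in place of 0.20. The intervals then ran from -1.41 to 1.205 for Slc17a7 and from -1.56 to 1.55 for Neurod6. The sign of these small differences rested on single animals.

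The other members had narrower intervals. Neurod2 differed by 0.25 between AA and ANA (-0.07 to 0.56) and by at most 0.08 in size in the other pairs. Tbr1 differed by at most 0.08 in size in every pair, with the widest interval running from -0.04 to 0.21 in HAD1 and LAD1. Nrgn differed by 0.11 in HAD1 and LAD1 (-0.17 to 0.39), by 0.08 between AA and ANA (-0.23 to 0.38) and by less elsewhere, between 0.00 in P and NP and 0.05 in sP and sNP. Averaged over the 5 pairs, the differences lay between -0.06 for Camk2a 1388187_at and 0.14 for Slc17a7 1368987_at. The mean difference of Slc17a7 had an SE of 0.22 and that of Tbr1, which was 0.00, an SE of 0.02.

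Camk2a 1388187_at came nearest to a call. It ran from 6.03 over 6.72 to 7.71 log2 units in HAD2 and from 6.83 over 7.14 to 7.74 in LAD2, and the overlap rested mostly on HAD2 8. The next HAD2 array lay at 6.99, and 9 of 10 LAD2 arrays lay above that. In the other 4 pairs the difference lay between -0.07 and 0.18. In HAD2 and LAD2 it was -0.50 (SE 0.15, 95% interval -0.81 to -0.18, limma adjusted p = 0.0735). It passed the test when HAD2 8, the highest HAD2 array, was left out (-0.61, limma adjusted p = 0.00341) or LAD2 11 was left out (-0.54, limma adjusted p = 0.0451). It also passed with array weights (-0.58, limma adjusted p = 0.0148), and over the other settings that used all 20 arrays its adjusted p lay between 0.0616 and 0.0796. Without single arrays the adjusted p lay between 0.00341 and 0.137. On the other Camk2a probe sets the difference was -0.30 for 1381637_at (adjusted p = 0.173), -0.05 for 1389824_at and -0.07 for 1368935_at. This was the probe set with the low level in the HAD and LAD lines, and it did not vary with the others across HAD2 and LAD2 arrays.

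**Figure D2:**
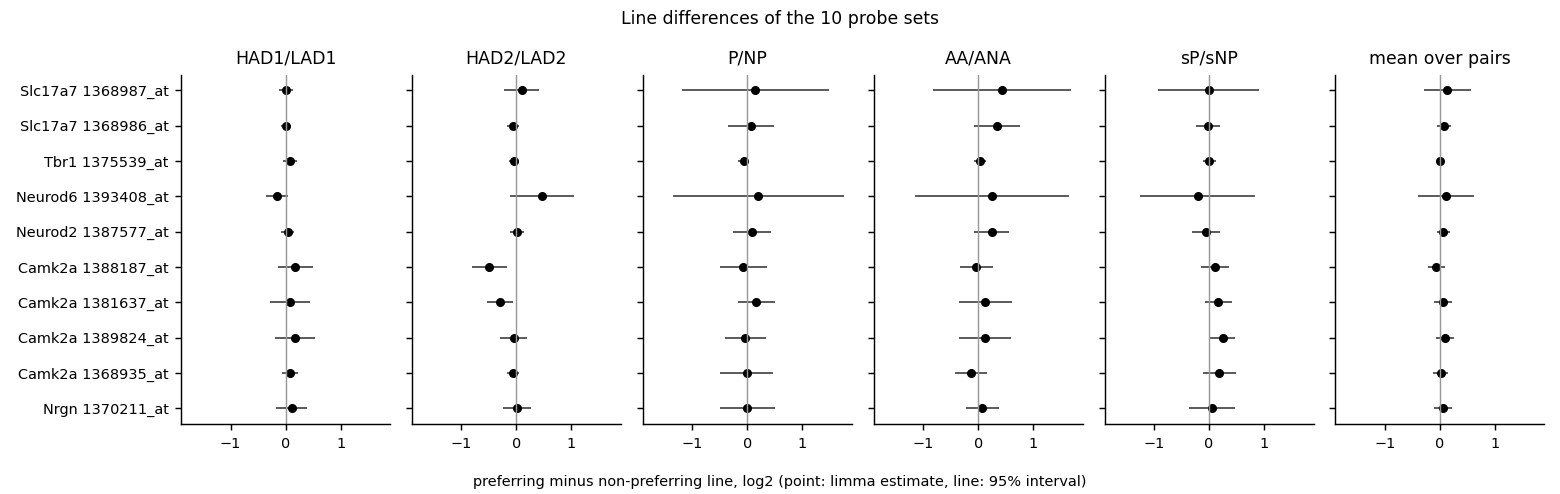
Preferring minus non-preferring difference of the 10 probe sets in log2 units (point) with its 95% interval from limma (line), for each line pair and for the mean over pairs. The intervals of Slc17a7 1368987_at and Neurod6 are the widest in the P, AA and sP pairs, and 0 of the 10 probe sets pass the adjusted test in any panel.

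Within lines, the members did move together. For each pair of genes, r was taken across arrays after subtracting the mean of the labelled line. A line difference cannot produce it where the labels are right, while a mislabelled array would keep that difference. In all, 15 gene pairs in 5 line pairs gave 75 relations. By permutation within lines, adjusted over the 75, 25 passed the test and all 25 were positive. They fell as 10 of 15 in the P pair, 7 in the AA pair, 5 in the sP pair, 3 in HAD2 and LAD2 and 0 in HAD1 and LAD1. The median r was 0.64, 0.54, 0.52, 0.20 and 0.15 in that order, and 0.42 over all 75. Without the 15 doubted arrays 13 passed: 5 in P and NP, 3 in AA and ANA, 3 in sP and sNP and 2 in HAD2 and LAD2. The median r was then 0.34, with 13 to 20 arrays per pair. With the GAPDH ratio as a covariate 26 passed. Of these 2 lay in HAD2 and LAD2, 1 in HAD1 and LAD1 and 6 in sP and sNP, in place of 3, 0 and 5. By rho in place of r 22 passed, 21 of them positive and 1 negative, which was Slc17a7 with Camk2a in HAD1 and LAD1.

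Slc17a7 and Neurod6 were the closest pair of members. In P and NP r was 0.99 (rho = 0.98, permutation adjusted p = 0.00015, from a p of 1e-05, the smallest that 100000 permutations can give) and stayed at 0.99 without the 2 arrays farthest from the median, P 9 and NP 2. In AA and ANA r was 0.97 (rho = 0.94, permutation adjusted p = 0.00015) and 0.96 without AA 3 and AA 7. In sP and sNP r was 0.98 (rho = 0.72, permutation adjusted p = 0.000429) and 0.83 without sP 4 and sNP 6. The animals were not evenly spread. In P, 6 arrays lay at or below 6.61 log2 units for Slc17a7 and 4 at or above 8.91, and in sP 7 lay at or below 6.37 and sP 4 at 9.66. Lines were therefore also read singly, with adjustment over 11 relations. In NP r was 0.98 (rho = 0.99, permutation adjusted p = 5.5e-05) and 0.97 without its 2 farthest arrays, and in ANA 0.98 (rho = 0.95, permutation adjusted p = 5.5e-05) and 0.96. In AA r was 0.97 (rho = 0.92, permutation adjusted p = 0.00011) and 0.96 without them, and in sNP 0.96 (rho = 0.75, permutation adjusted p = 0.00251) and 0.96. Among the 6 lower P arrays r was 0.86 (rho = 0.54, exact permutation adjusted p = 0.0859) and -0.77 without the 2 farthest, so within P the relation rested on the distance between the lower and the upper arrays. The 4 upper arrays were too few for a value. In sP r was 0.99 (rho = 0.55, permutation adjusted p = 0.0135) and fell to 0.12 without the 2 farthest, so it rested on sP 4.

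The size of r between Slc17a7 and Neurod6 in HAD2 and LAD2 leaned on HAD2 9. There r was 0.92 (rho = 0.68, permutation adjusted p = 0.0121) and fell to 0.48 without that array. Read singly, HAD2 had r of 0.96 (permutation adjusted p = 0.0182) and -0.05 without its 2 farthest arrays. LAD2 had r of 0.51 (permutation adjusted p = 0.164) and 0.54 without its 2 farthest. Its rho was 0.73 (permutation adjusted p = 0.0464). In HAD1 and LAD1 read singly r was -0.37 and 0.16. In HAD1 and LAD1 no such relation was seen (r = -0.16, rho = -0.01, permutation adjusted p = 0.622), where Slc17a7 lay between 6.40 and 6.81 log2 units. A change of 1 log2 unit in Slc17a7 went with 1.15 log2 units of Neurod6 in P and NP, 1.08 in AA and ANA and 1.12 in sP and sNP. The slope was 1.70 in HAD2 and LAD2.

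**Figure D3:**
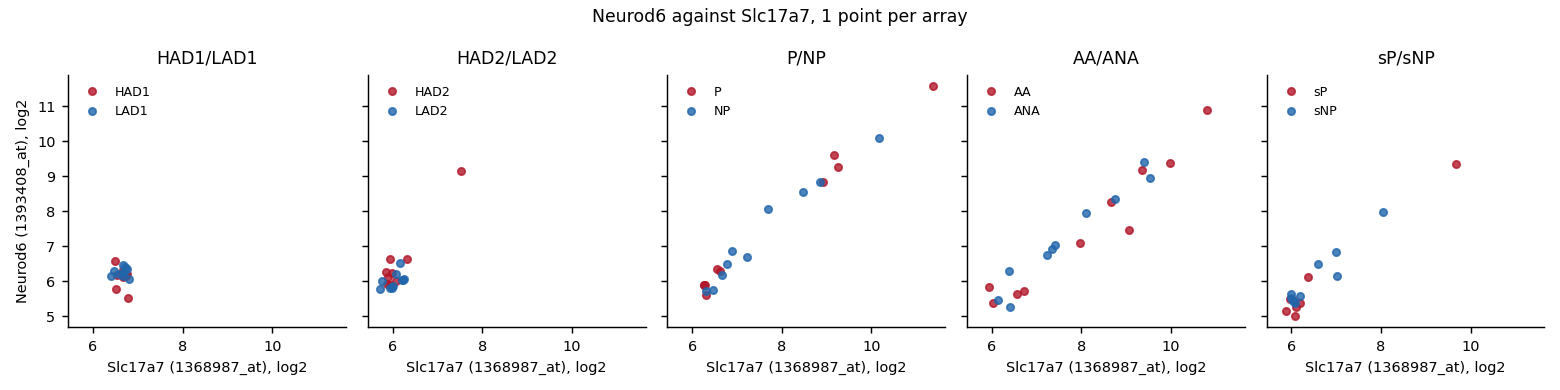
Neurod6 (1393408_at) against Slc17a7 (1368987_at), deposited log2 values, 1 point per array, by line pair, with common axes. Both genes rise together in the P and AA pairs, sP 4 and sNP 6 lie above the other arrays of their pair, HAD2 9 lies alone above its pair, and HAD1 and LAD1 form a single cloud.

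Neurod2 joined them. With Slc17a7 its r was 0.91 in P and NP, 0.84 in AA and ANA, 0.83 in sP and sNP and 0.50 in HAD2 and LAD2, and all 4 passed (permutation adjusted p between 0.00015 and 0.0411). Without the farthest arrays r was 0.90, 0.78, 0.64 and 0.68. Without the 15 doubted arrays the first 3 still passed. HAD2 and LAD2, which held no doubted array, then missed the adjusted test (permutation adjusted p = 0.0659). In HAD1 and LAD1 r was 0.16. Across HAD2 and LAD2 arrays, Neurod2 and Slc17a7 had rho of -0.86 and -0.50 with the GAPDH ratio (permutation adjusted p = 0.0003 and 0.367). The part of RNA quality in their relation there is not given. Neurod2 and Neurod6 had r of 0.89, 0.86 and 0.79 in the first 3 of these pairs, and the last fell to 0.36 without sP 4 and sNP 6.

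The synaptic genes followed more loosely. Camk2a 1388187_at had r of 0.65 with Slc17a7 in P and NP, 0.60 in AA and ANA and 0.64 in sP and sNP, with permutation adjusted p of 0.0125, 0.0284 and 0.0181. Without the 2 farthest arrays these were 0.34, 0.54 and 0.31, so in P and NP and in sP and sNP the relation leaned on those arrays. Without the 15 doubted arrays r was 0.48, 0.55 and 0.62, and none of them passed (permutation adjusted p = 0.203, 0.137 and 0.0967). In HAD1 and LAD1 the same 2 genes had r of -0.42 (permutation adjusted p = 0.163) and -0.77 without the 2 farthest arrays. There rho was -0.60 (permutation adjusted p = 0.04). In HAD1 and LAD1 this Camk2a probe set was dimmer than 1381637_at and 1389824_at. Its r was 0.35 with each of them (permutation adjusted p = 0.217), while those 2 had r of 0.82 with each other. The negative relation thus holds for 1388187_at, and relations of the other Camk2a probe sets with Slc17a7 are not given here. Nrgn had r of 0.73 with Slc17a7 in P and NP (rho = 0.83, permutation adjusted p = 0.00358) and 0.67 without the farthest arrays. In AA and ANA it was 0.51 (adjusted p = 0.0715 by permutation) and in sP and sNP 0.49 (adjusted p = 0.143 by permutation). Between Camk2a and Nrgn r was between 0.34 and 0.57 in the 5 pairs and passed in P and NP alone. It did not pass there without the doubted arrays (r = 0.61, permutation adjusted p = 0.121).

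Tbr1 stood outside. Of its 25 relations 1 passed, with Neurod2 in P and NP (r = 0.64, rho = 0.40, permutation adjusted p = 0.0424), and r was 0.27 without P 9. Slc17a7 and Neurod6 each passed in 12 of 25 relations, Neurod2 in 11, Camk2a in 9 and Nrgn in 5. The Tbr1 probe set, in a gene known from the same neurons, gave no other relation past the test by r. By rho its relation with Slc17a7 passed in HAD1 and LAD1 (rho = 0.60, permutation adjusted p = 0.0393), where r was 0.53 (permutation adjusted p = 0.054).

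**Figure D4:**
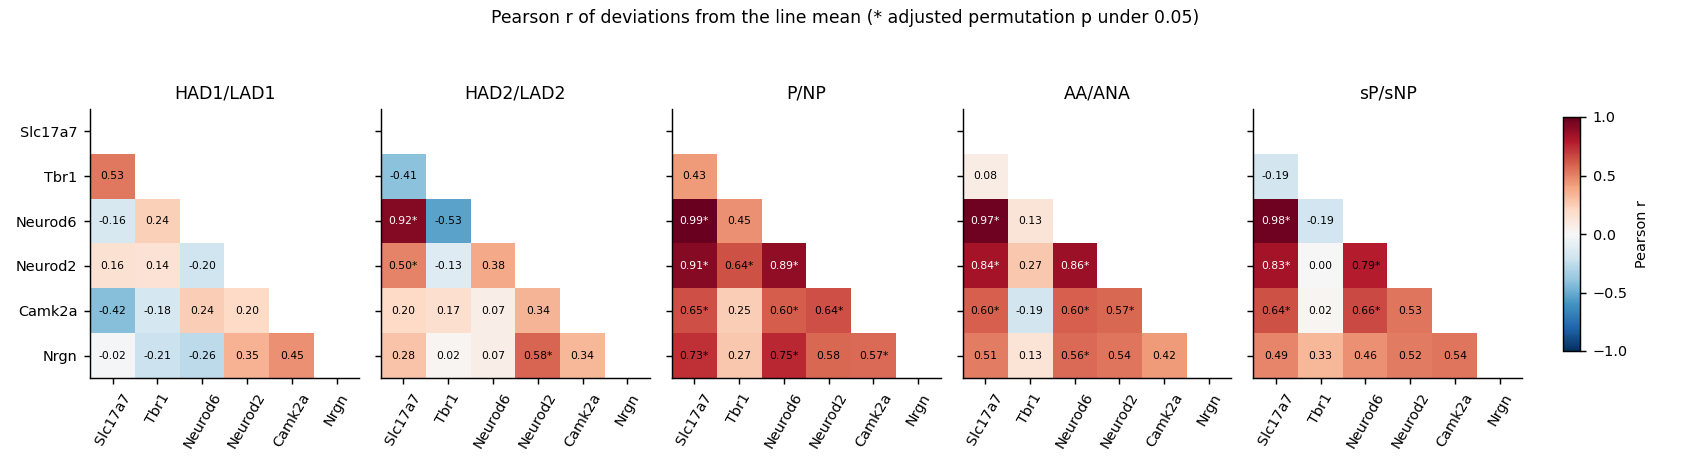
Pearson r between each pair of the 6 genes across arrays, after the line mean was subtracted, for each line pair; colour and number give r and an asterisk marks a permutation adjusted p under 0.05 over 75 relations. The Tbr1 row and column hold 1 asterisk, and HAD1 and LAD1 hold none.

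Other markers of forebrain excitatory neurons were read against Slc17a7 in the same way. The list had 32 genes, 30 of them measured. Their median r with Slc17a7 was 0.53 in P and NP, 0.47 in AA and ANA, 0.46 in sP and sNP, 0.36 in HAD2 and LAD2 and -0.01 in HAD1 and LAD1. Over all genes the median lay between -0.04 and 0.03 in the 5 pairs. In P and NP r was positive for 29 of the 30 genes, among them Cck, a neuropeptide (0.96), Fezf2, a transcription factor of deep-layer neurons (0.96), Rtn4r, the Nogo receptor (0.82), and Emx1, a pallial homeobox factor (0.79). The exception was Cplx2, which encodes a complexin (-0.23). In AA and ANA Cck had 0.94 and Fezf2 0.90, and in sP and sNP 0.91 and 0.89. These values share arrays with each other and are given as a description.

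The mean log2 level of these 30 genes was highest in its line in P 9 (10.80), NP 2 (10.33), AA 3 (10.18), ANA 12 (10.03), sP 4 (10.02), sNP 6 (9.74) and HAD2 9 (9.57), each of which was also the highest array of its line for Slc17a7. In HAD1, LAD1 and LAD2 the highest array for the list (9.17, 9.24 and 9.26) was not the highest for Slc17a7. The lowest arrays of the first 7 lines lay between 8.87 in HAD2 and 9.37 in AA.

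Between lines, 2 of the 30 genes passed the limma test in HAD2 and LAD2, in opposite directions, where the test called 3.75% of all 14217 genes. Rorb, a nuclear receptor of layer IV neurons, was higher in HAD2 by 1.02 log2 units (SE 0.18, limma adjusted p = 0.000664). Nptx1, a neuronal pentraxin, was lower in HAD2, with a difference of -0.66 log2 units (SE 0.15, limma adjusted p = 0.00785). The mean difference of Rorb over the 5 pairs was 0.27 (SE 0.06, limma adjusted p = 0.00591), a test that called 0.816% of all genes. That mean was carried by HAD2 and LAD2, since the difference was 0.20 in HAD1 and LAD1, 0.12 in P and NP, 0.01 in AA and ANA and -0.01 in sP and sNP. HAD1 and LAD1 and the other 3 pairs gave 0 of 30. The median difference of the list lay between -0.01 and 0.05 in the 5 pairs, against -0.01 to 0.01 over all genes.

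Oligodendrocyte markers ran the other way. Of 15 genes 14 were measured, and 0 of them had a positive r with Slc17a7 in the P, AA, sP and HAD2 pairs, with medians of -0.79, -0.43, -0.52 and -0.28, and 2 did in HAD1 and LAD1, where the median was -0.14. In P and NP r was -0.76 for Mbp, which encodes myelin basic protein, and -0.86 for Sox10, a transcription factor of the lineage. The mean log2 level of the 14 genes ran from 10.93 to 12.62 in P, 11.47 to 12.85 in NP, 10.92 to 12.54 in AA, 11.61 to 12.46 in ANA, 11.69 to 12.85 in sP and 11.70 to 12.62 in sNP. In HAD1, LAD1, HAD2 and LAD2 it ran from 11.93 to 12.53, 11.61 to 12.50, 11.62 to 12.29 and 11.58 to 12.18. In P, NP, AA, ANA and sP the lowest array, P 9, NP 2, AA 3, ANA 12 and sP 4, was the highest for Slc17a7, while in sNP, HAD1, LAD1, HAD2 and LAD2 these were different arrays. In LAD2 the lowest array for the list, LAD2 16, was also the lowest for Slc17a7. Other arrays with high Slc17a7 did not follow: P 5 had 9.24 for Slc17a7 and 12.17 for these markers, and AA 7 had 9.97 and 12.35. The lowest value of a single gene of the list was 4.72 log2 units, in AA, where a low level and background could not be told apart. The part of oligodendrocyte RNA in the co-variation was not tested.

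As a list, markers of the central nucleus itself showed no such order. The 15 measured genes had median r with Slc17a7 of 0.23 in P and NP, -0.01 in AA and ANA, 0.19 in sP and sNP, 0.17 in HAD2 and LAD2 and -0.11 in HAD1 and LAD1. Tac1, which encodes substance P, had -0.48 in P and NP, -0.54 in AA and ANA and -0.29 in sP and sNP. Isl1, a transcription factor of striatal lineage, had -0.65, -0.44 and -0.58. Other genes of the list went the other way, such as Wfs1, which encodes wolframin (0.64, 0.15 and 0.35), and Ezr, which encodes ezrin (0.60, 0.12 and 0.37). In the same 3 pairs 10, 7 and 12 of the 15 had a positive r. Gad1, from the GABAergic list, had r of -0.64, -0.73 and -0.38 in these pairs. On that list 2, 3 and 3 of 7 genes had a positive r, among them Vip (0.82, 0.84 and 0.89). The mean level of the 15 genes was lowest within P in P 9, at 9.996 against a line mean of 10.60. The highest Slc17a7 arrays of other lines did not share this: NP 2 had 10.93 (line mean 10.64), AA 3 10.76 (10.67), ANA 12 10.77 (10.74), sP 4 10.81 (10.66) and sNP 6 10.75 (10.61). Whether tissue from the cortex or the basolateral nucleus in single samples lay behind the shared variation was not tested.

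**Figure D5:**
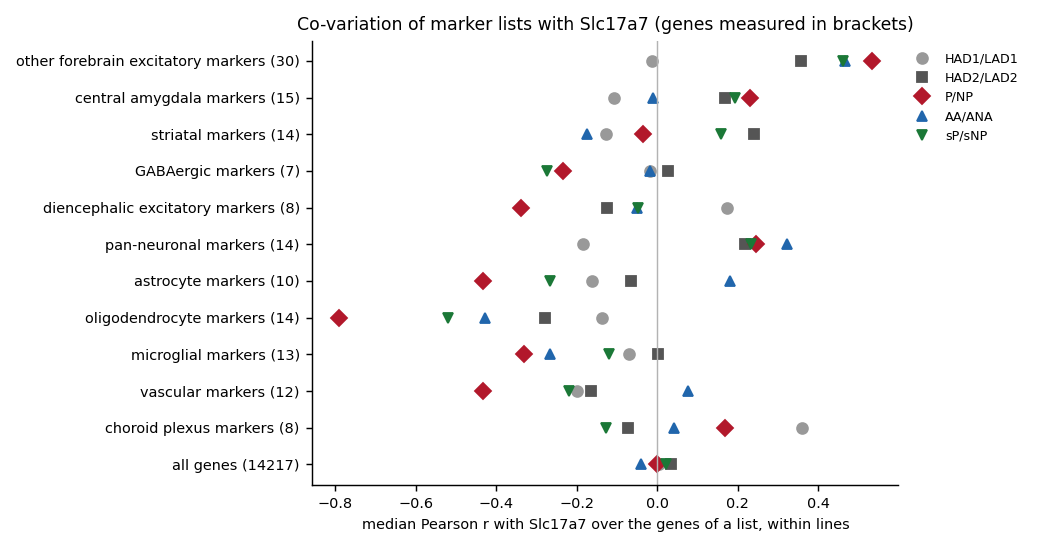
Median Pearson r with Slc17a7 over the genes of each marker list, within lines, 1 symbol per line pair, with the number of measured genes in brackets. Other forebrain excitatory markers lie between 0.36 and 0.53 in 4 of 5 pairs, and oligodendrocyte markers between -0.79 and -0.28 in the same 4.

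The genes most like the 6 members were ranked by the mean over the 5 pairs of r with the average standardised deviation of the members, over 14211 other genes. This is a description of the same arrays with no test. Fezf2 came first (mean r 0.82, from 0.62 in HAD2 and LAD2 to 0.96 in P and NP). Next were Slc30a3 (0.79), the zinc transporter of glutamatergic vesicles, Crhbp (0.76), the binding protein of corticotropin-releasing hormone, Stx1a (0.76), a syntaxin of the presynaptic membrane, and Lingo1 (0.75). Dnajb13 (0.73), Cck (0.72), Cpne6 (0.72), Ccn3 (0.72) and Septin5 (0.72) completed the first 10. At the other end were Micall1 (-0.74), Slc5a11 (-0.73), Foxn3 (-0.73), Myo1d (-0.73), Cpm (-0.73), Amotl2 (-0.73), Fah (-0.72), Pcyt1a (-0.72), Fryl (-0.72) and Jpt2 (-0.72).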

How the data were processed

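RNA of the central nucleus of the amygdala was extracted with Trizol and a column kit, and cRNA labelled from 25 ng in 2 cycles was hybridised to Affymetrix rat arrays, per the labels' protocols. The authors deposited RMA values on a log2 scale, per the submitters' processing notes. RMA corrects background, normalizes arrays and summarises probes. Not given in the sources used here were its version and whether all arrays were normalized in 1 run. Array medians lay between 7.77 and 8.02 log2 units. Precision is limited by the number of arrays. All value columns belonged to a sample (0 did not).

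The 57 control probe sets were left out. Of the 31042 others, 20826 carried 1 gene symbol, 436 several and 9780 none in the platform annotation, and a gene was represented by its probe set with the highest mean. Where lines differ in sequence under a probe, its signal can change with no change in RNA. Lines and animal numbers came from the titles; LAD1 36 was kept as LAD1.

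Each pair was fitted with limma 3.58.1 in R 4.3.3 (lmFit, eBayes with an intensity trend), two-sided, with Benjamini-Hochberg adjustment over 31042 probe sets and a threshold of 0.05. A fit of all 10 lines gave the mean of the differences and an F test of their variation. Relations between members used deviations from the line mean and 100000 permutations within lines (exact for 6 arrays). The fits and the relation test were tested on simulated data. Alternatives were the 15 doubted arrays left out, array weights, a pooled fit, the brighter 50% of probe sets, 1 probe set per gene, quantile and median normalization, the GAPDH ratio as covariate and single arrays left out. Doubted arrays were found from 100 probe sets that best separate a pair, scored without the array and without the members, on odd and on even chromosomes.

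Named genes are all members and at most 2 genes per direction past the test from each marker list. The 10 genes most and the 10 least like the members were also named. Cck, Fezf2, Rtn4r, Emx1, Cplx2, Mbp, Sox10, Tac1, Isl1, Wfs1 and Ezr were picked once their values had been seen. The r values of Gad1 and Vip were picked in the same way. The members and lists were chosen with earlier results of these data known.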

Additional observations from a re-analysis of the deposited data

Results flagged for a closer look

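In 16 of the 100 sets of 8 to 10 arrays formed by 10 probe sets and 10 lines, 1 array lay far from the others by Dixon's gap test at the 95% level, which chance alone passes in about 5% of such sets. Slc17a7 1368987_at was far above its line in HAD2 9 (7.53 log2 units, next 6.31), sP 4 (9.66, next 6.37) and sNP 6 (8.03, next 7.01). Slc17a7 1368986_at was so in P 9 (8.24, next 6.93) and NP 2 (7.41, next 6.86). Neurod6 stood out in HAD2 9 (9.14, next 6.64) and sP 4 (9.34, next 6.12). Neurod2 stood out in P 9 (9.42, next 8.32), AA 3 (9.09, next 8.35) and sP 4 (8.15, next 7.66).

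Camk2a 1388187_at was far above its line in P 9 (14.02, next 13.23), and so was Camk2a 1389824_at (11.42, next 10.72). Camk2a 1381637_at was far below in ANA 6 (8.46, next 9.94), Camk2a 1389824_at in ANA 6 (8.42, next 10.09) and in HAD1 30 (7.88, next 8.55), and Nrgn in HAD2 6 (10.71, next 11.41). P 9 accounted for 4 of these values and sP 4 for 3, and P 9 is also one of the doubted arrays.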

How the results depend on the processing

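In HAD1 and LAD1, in the P, AA and sP pairs and for the mean over pairs, 0 of the 10 probe sets passed the limma test under each setting run, single arrays left out included. In HAD2 and LAD2 1 probe set, Camk2a 1388187_at, passed with array weights, and leaving out single arrays gave between 0 and 1. The variation among pairs gave 1, the same probe set, with array weights (F = 4.95, limma adjusted p = 0.0153) and 0 otherwise. The relations past the permutation test numbered 25, 13 without the doubted arrays, 22 to 26 under the other settings and 20 to 27 without single arrays, a setting chosen after seeing the data. The median r of 0.42 stayed between 0.34 and 0.46 under the same settings. The replicate block, with the animal number of P and NP or of sP and sNP as the block, gave 0 member probe sets in each. The numbers were not taken as pairing, since the correlation of same-numbered arrays ran from -0.11 to 0.51 and from -0.18 to 0.77. Of 450 differences under other settings 34 changed sign, and of 1920 without single arrays 121 did, none of them larger than 0.25 log2 units in size beforehand. Low probe sets such as Tbr1 may lie near background, which RMA values do not show.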

Other observations

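The other marker lists gave these values against Slc17a7. In P and NP the median r was 0.24 for 14 pan-neuronal genes, -0.03 for 14 striatal genes, -0.23 for 7 GABAergic genes, -0.34 for 8 diencephalic excitatory genes and -0.43 for 10 astrocyte genes. It was -0.33 for 13 microglial, -0.43 for 12 vascular and 0.17 for 8 choroid plexus genes. In AA and ANA the same lists had 0.32, -0.17, -0.02, -0.05 and 0.18, and then -0.27, 0.08 and 0.04. In sP and sNP they had 0.23, 0.16, -0.27, -0.05 and -0.27, and then -0.12, -0.22 and -0.13.

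Between lines, limma called 3 of the 158 genes on the lists beside the members in HAD1 and LAD1, of which 145 were measured, and 8 in HAD2 and LAD2. Over all 14217 genes it called 0.682% and 3.75%. Cx3cr1, the fractalkine receptor of microglia, was lower in HAD1 (-0.40, SE 0.09, adjusted p = 0.0348), as were C1qc, a complement chain (-0.48, adjusted p = 0.0266), and Abcb1a, an efflux pump of the blood vessel wall (-0.67, adjusted p = 0.0403). In HAD2 and LAD2, beside Rorb and Nptx1, limma called P2ry12, a purinergic receptor of microglia, higher in HAD2 (0.64, adjusted p = 4.62e-06) and Cx3cr1 lower (-0.30, adjusted p = 0.0033). Abcb1a (0.66), Rgs5 (0.42) and Gjb6 (0.28) were higher and Tek (-0.28) was lower there, with limma adjusted p between 0.00933 and 0.0235. Abcb1a thus differed in opposite directions in these pairs. For the mean over pairs, where 0.816% of all genes were called, Cx3cr1 had a difference of -0.16 (SE 0.03, limma adjusted p = 0.00146). That mean was carried by the HAD1 and HAD2 pairs, since the difference was -0.09 in P and NP, -0.03 in AA and ANA and 0.02 in sP and sNP. Striatal, GABAergic, diencephalic, pan-neuronal, oligodendrocyte, choroid plexus and central amygdala markers gave 0 calls in every comparison.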
